A study of Mus musculus with 5480 samples.

Results

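Prostaglandins are lipid signals that cells of the lung make, sense and break down, and 9 genes of that chain were followed here through single mesenchymal cells of the mouse lung. The genes are Ptgs1, Ptgs2, Ptges, Ptgis, Ptger2, Ptger3, Ptger4, Ptgfr and Hpgd. They were chosen by name, with earlier results of these data known, as rows of a table of 18072 genes, and all 9 were found. A read of Ptgs1 was found in 25.3% of the 5480 cells, of Ptger2 in 24.6%, of Ptgis in 23.6%, of Ptges in 22.9%, of Ptger3 in 19.3%, of Ptger4 in 14.7%, of Hpgd in 7.28%, of Ptgfr in 6.75% and of Ptgs2 in 5.11%.

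As background, phospholipases release arachidonic acid from membranes, and the cyclooxygenases encoded by Ptgs1 and Ptgs2 turn it into the unstable precursor of all prostanoids. Ptges, the inducible terminal synthase of prostaglandin E2, and Ptgis, prostacyclin synthase, then make different products from that precursor. Ptger2 and Ptger4 encode prostaglandin E2 receptors that raise cyclic AMP, Ptger3 encodes a prostaglandin E2 receptor that mostly lowers it, Ptgfr encodes the receptor of prostaglandin F2 alpha, and Hpgd encodes the dehydrogenase that inactivates prostaglandins. In the lung this system is known for setting the tone of airways and vessels, and prostaglandin E2 is known to restrain the growth and matrix output of fibroblasts.

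The cells had been sorted from distal lung by flow cytometry and sequenced one by one in plates, with libraries made by Tn5 transposase, an enzyme that cuts DNA and attaches adapters. The labels name 10 mice in 5 groups, each with 1 female and 1 male: E18.5 normal (embryonic day 18.5), P1 normal, P7 normal and P21 normal (postnatal days 1, 7 and 21), and P7 hyperoxia, in which mice of that day had been kept in hyperoxia, that is, oxygen-enriched air. The study labelled each cell with 1 of 16 subtypes, and these names are used as given. Strain, genotype, oxygen level and length of exposure are not given in the sources used here, nor is it said whether a mouse name stands for 1 animal or for pooled animals.

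Cells of the female and male mouse numbered 627 and 579 at E18.5, then 633 and 570 at P1, 606 and 570 at P7 normal, 509 and 551 at P7 hyperoxia, and 524 and 311 at P21. A cell held 39358 to 5177020 reads in genes, with a median of 774305. Marker lists were set for 8 kinds of cell, not for the fibroblast precursors or the male hyperoxic fibroblasts. Myofibroblast and smooth muscle precursors were counted among the own cells of the myofibroblast list. At least 7 genes of each list held reads in every group of the subtypes counted with it. The myofibroblast list reached 21327 CPM (a gene's reads per 1000000 reads in genes, here summed) in early airway smooth muscle and at most 12487 in its own cells, and the airway list reached 28610 in vascular smooth muscle and at most 24123 in its own, so these 2 lists do not set contractile subtypes apart. The lowest sums in own cells were 13036 CPM for the vascular, 4271 for the alveolar and 2035 for the adventitial list. Other cells reached 17103 (early airway smooth muscle), 7089 (fibroblast precursors) and 4428 (proliferating fibroblasts), so these lists also overlapped other subtypes. Summed markers of other cell types were low in whole mice: 37.0 to 108 CPM for epithelial, 126 to 209 for endothelial, 9.79 to 61.2 for immune and 49.8 to 272 for mesothelial lists. Some libraries stood apart. With all cells drawn down at random to 100000 reads (thinned), the median number of genes per cell was 3798 and 4526.5 in the hyperoxia mice against 2442 and 2354 in P7 normal, and the early alveolar fibroblasts of E18.5 were only 14 and 24 cells. Apart from cells of the CD31 sort, each hyperoxia mouse had a sequencing run to itself, so run and hyperoxia cannot be told apart. The 4 normal male mice shared 1 run and the females of E18.5 and P1 another, apart from cells of the CD31 sort, so values within males, and within females from E18.5 to P1, are values within a run.

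In what follows, paired values are the female mouse and then the male mouse, a level is the CPM of reads summed over the cells of a mouse, and shares of cells with a read are given after thinning to 100000 reads per cell. Differences between groups were tested on summed counts with the quasi-likelihood test of edgeR, two-sided, with sex as a term, adjusted by Benjamini-Hochberg over all genes of a comparison and called under an adjusted p of 0.05. With 2 mice a group, the spread behind such a p was estimated over all groups of a fit, with information shared across genes. Such a p therefore rests on few mice, some of them outside the comparison. An SE beside an edgeR log2 fold change is the size of that change divided by the square root of the test's F value. It is not a separate estimate from the fit. Because the subtype labels are taken to rest on the expression of these same cells, levels in different subtypes are described without a test. In summed reads, fewer cells of a type and less RNA per cell cannot be told apart.

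The stretches of DNA just upstream of the cyclooxygenase genes are shown because the 2 genes behaved very differently in these cells. They are the 250 bases before the start of each gene, from RefSeq, build GRCm38.p6, plus strand, 5′ to 3′, with Ptgs1 at chr2:36230176-36230425 and Ptgs2 at chr1:150099781-150100030. Capitals mark matches to 2 of the 5 motifs searched on both strands, GGGCGG (a GC box) and TTGCNNAA (a C/EBP site).
Ptgs1: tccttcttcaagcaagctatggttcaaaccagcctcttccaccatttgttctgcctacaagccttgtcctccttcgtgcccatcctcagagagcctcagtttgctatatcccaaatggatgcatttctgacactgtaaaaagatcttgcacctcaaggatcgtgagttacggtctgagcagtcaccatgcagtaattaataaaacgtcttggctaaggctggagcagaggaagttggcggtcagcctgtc
Ptgs2: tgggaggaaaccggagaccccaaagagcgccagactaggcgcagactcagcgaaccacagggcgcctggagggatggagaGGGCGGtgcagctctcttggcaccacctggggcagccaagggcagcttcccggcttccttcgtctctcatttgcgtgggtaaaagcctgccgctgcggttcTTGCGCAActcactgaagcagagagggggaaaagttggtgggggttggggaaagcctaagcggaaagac

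The Ptgs1 window was 48% G and C with 5 CG pairs, and the Ptgs2 window was 61.6% with 13, beside medians of 52.4% and 6 over 32851 gene starts. Ptgs2 held TTGCGCAA 69 to 62 bases before its start, and TTGCNNAA was found in 9.56% of all windows. GGGCGG, found in 32.7% of all windows, was present upstream of Ptgs2, Ptges, Ptger3, Ptger4, Ptgfr and Hpgd and was not in the windows of Ptgs1 and Ptger2. TATAAA, TGACGTCA (a cyclic AMP response element) and TGANTCA (an AP-1 site) were in none of the 8 windows that could be matched, and in 12.4%, 1.55% and 6.75% of all windows. None of these motifs contains another, and a match describes letters only.

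The 9 genes did not share 1 pattern, though several peaked in the same subtype. Ptger4 had its highest mean in early alveolar fibroblasts of P1 and its highest single level in airway smooth muscle of the P21 male. Ptgs1 peaked in contractile precursors and myofibroblasts, Ptgs2 in adventitial fibroblasts of P21, Ptges in myofibroblasts, Ptgis in airway smooth muscle, Ptger2 in airway smooth muscle of the P21 male and otherwise in early alveolar fibroblasts, Ptger3 in early alveolar fibroblasts, Ptgfr in adventitial fibroblasts and Hpgd in airway smooth muscle. Scaled to transcript length, the highest level in any of the 64 libraries (a subtype in a mouse, with at least 10 cells) was 229 CPM per kilobase for Ptgis, 98.3 for Ptgs1, 81.1 for Hpgd, 54.2 for Ptges, 47.8 for Ptger2, 38.5 for Ptger3, 20.9 for Ptgs2, 18.6 for Ptgfr and 8.15 for Ptger4. Ptges was the most widely found, with at least 10 CPM in 52 of 64 libraries, and Ptgs2 the least, with 11 of 64.

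**Figure D1:**
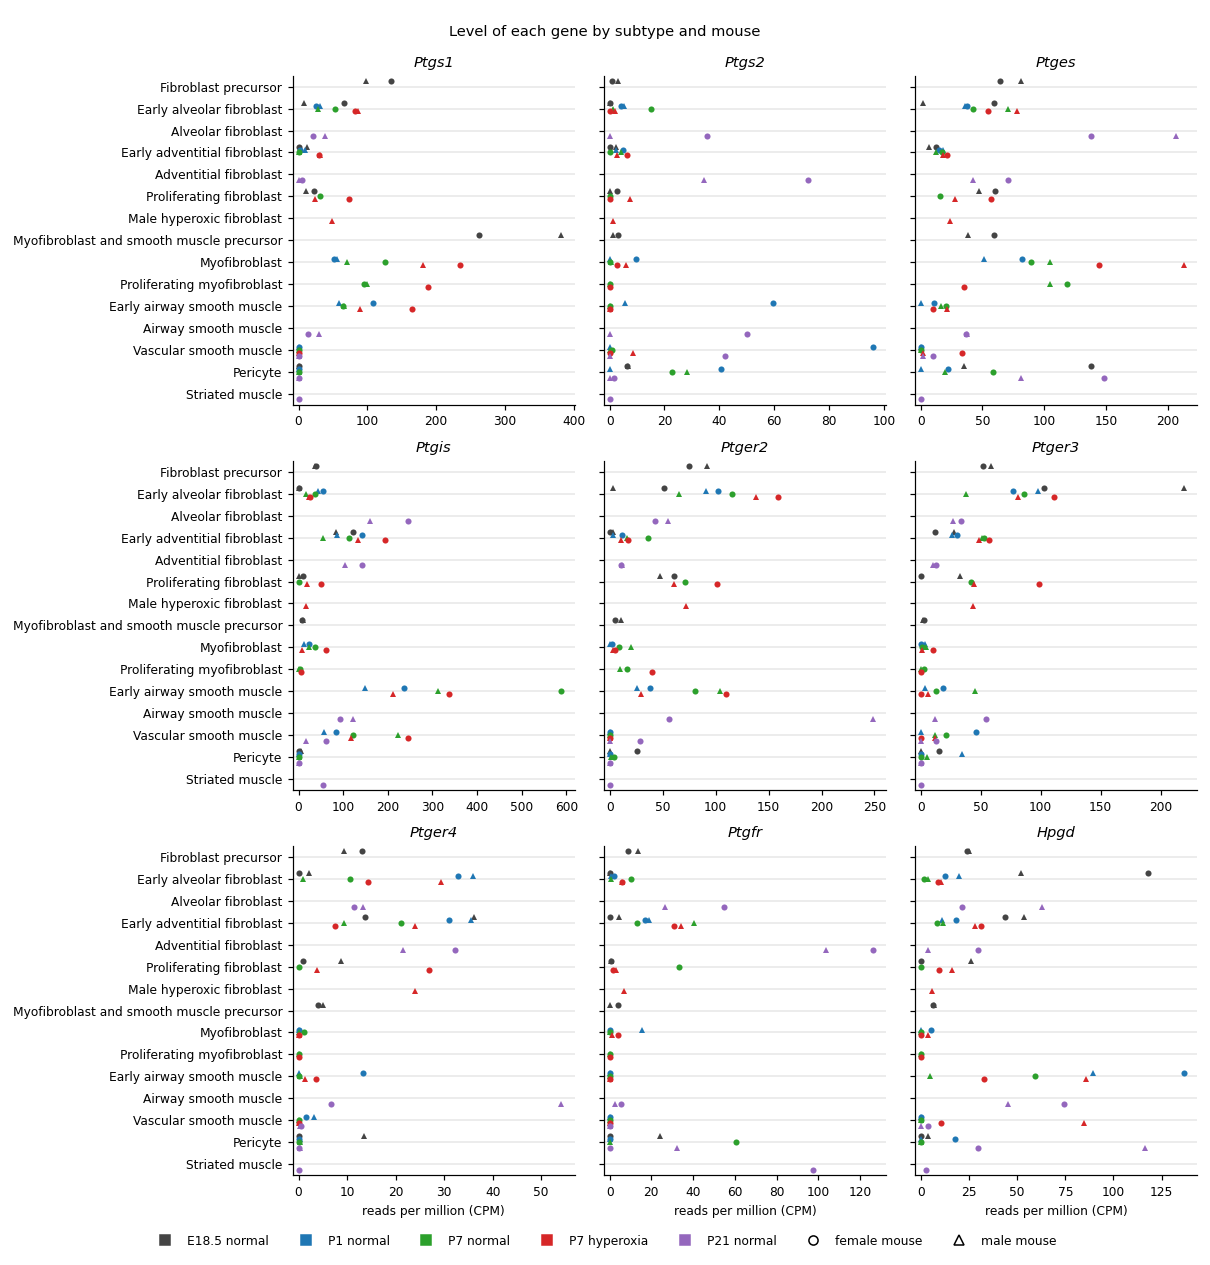
Level of each gene (CPM, 1 panel per gene) in every subtype, with 1 point per mouse (circle female, triangle male) and colours for the 5 groups. Ptgs1 lies at or near 0 in vascular smooth muscle and pericytes, Ptgis stands highest in early airway smooth muscle, and Ptgfr stands highest in adventitial fibroblasts of P21.

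Between ages, the summed cells of whole mice carried most of the calls. From E18.5 to P1, 1 of 9 members was called (Ptgs1, lower), where 1.23% of all 17283 genes tested were. Between P1 and P7 edgeR called 0 of 9 (0.22% of all genes), with 5 under an unadjusted p of 0.05. From P7 to P21, 5 of 9 were called, Ptgs1 lower and Ptgs2, Ptger4, Ptgfr and Hpgd higher, where 9.97% of all genes were. The median log2 change of the 9 genes from P7 to P21 was 0.76, beside 0.03 over all genes.

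Within cell classes fewer members were called. Ptgis in alveolar fibroblasts from E18.5 to P1 was 1 of 9, where 6.16% of all genes were called. No member was called in alveolar fibroblasts from P1 to P7 (0% of all genes) or from P7 to P21 (0.0702%), nor in adventitial fibroblasts from E18.5 to P1 (0.17%), P1 to P7 (0%) or P7 to P21 (0.124%). The same count of 0 came from myofibroblasts (P1 to P7, 0%), airway smooth muscle (P1 to P7, 0%; P7 to P21, 1.13%), vascular smooth muscle (P1 to P7, 0%; P7 to P21, 0.0886%) and pericytes (E18.5 to P1, 0.042%; P1 to P7, 0%; P7 to P21, 0.0504%). Over these 17 comparisons between ages edgeR called 7 of 140 member tests, 36 of 140 had an unadjusted p under 0.05 (25.7%, beside 9.52% of all gene tests), and DESeq2 called 33.

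For hyperoxia, edgeR called 0 of 50 member tests in 6 comparisons, 8 had an unadjusted p under 0.05 (16%, beside 6.12% of all gene tests), and DESeq2 called 5. The share of all genes called was 0.243% in all mesenchymal cells and 0% in alveolar fibroblasts, 0% in adventitial fibroblasts, 0% in myofibroblasts, 0% in airway smooth muscle and 0% in vascular smooth muscle. Comparisons of P7 hyperoxia, of P1 and of P21 with P7 normal share the same 2 control mice, and both steps on either side of P1 share the P1 mice.

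**Figure D2:**
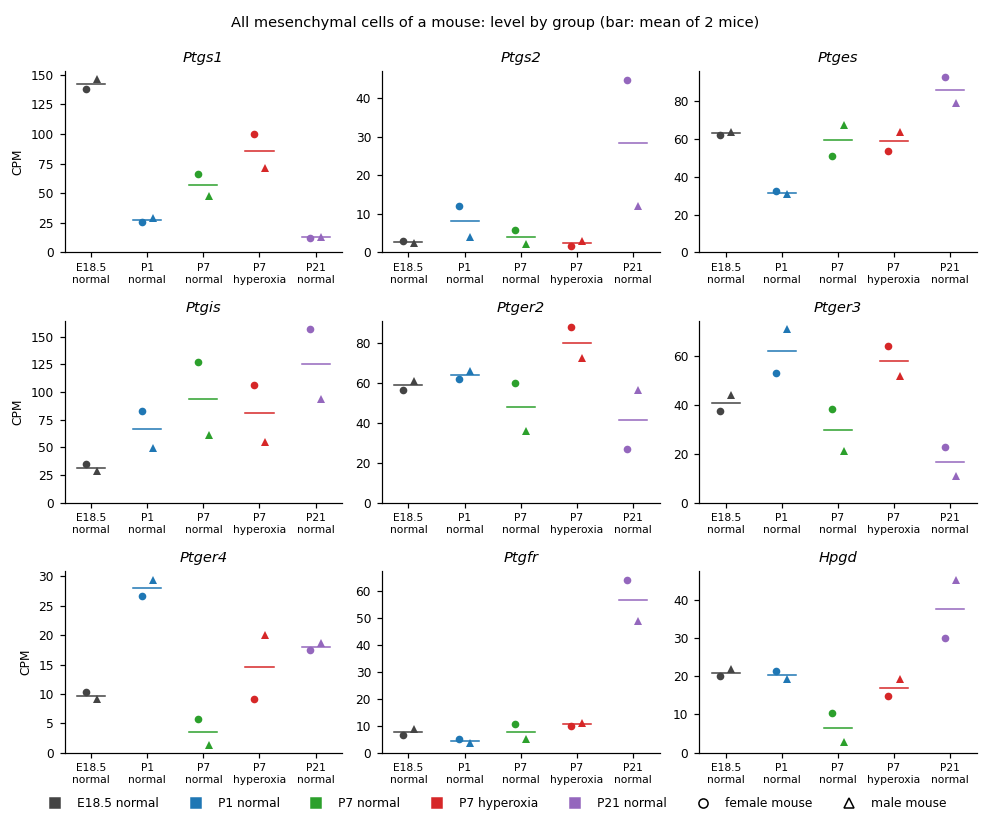
Level of each gene (CPM, 1 panel per gene) over all mesenchymal cells of a mouse, for the 5 groups, with 1 point for the female and 1 for the male and a bar at their mean. Ptgs1 falls from 138 and 146 at E18.5 to 12.5 and 12.8 at P21, while Ptgfr reaches 64.1 and 48.8 at P21.

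Ptgs1, the cyclooxygenase usually present at rest, was the most frequent of the 9 genes and marked contractile precursors. Its level in myofibroblast and smooth muscle precursors of E18.5 was 262 and 382 CPM (mean 322 ± 84.7, SD, n = 2), with a read in 48.5% and 60.0% of thinned cells. Fibroblast precursors of the same mice held 134 and 98.3 CPM. Those 2 precursor subtypes together supplied nearly all Ptgs1 reads of E18.5: 33.1% and 57.1% came from the contractile precursors, and 65.4% and 40.7% from the fibroblast precursors.

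At P1 and P7, myofibroblasts and airway smooth muscle held the highest Ptgs1 levels. Myofibroblasts had 51.4 and 56.0 CPM at P1 and 126 and 70.0 at P7 normal, and proliferating myofibroblasts of P7 normal had 95.4 and 98.9. In early airway smooth muscle it was 109 and 59.5 CPM at P1 and 65.1 and 66.6 at P7 normal, within the range of myofibroblasts, so that the order of these subtypes was not resolved by 2 mice. Alveolar fibroblasts were lower at these ages, at 26.1 and 31.2 CPM at P1 and 53.4 and 28.9 at P7 normal. At P21 this order did not hold. Alveolar fibroblasts of P21 had 21.0 and 39.2 CPM and gave 57.3% and 62.1% of Ptgs1 reads from 34.5% and 22.2% of cells. Airway smooth muscle of P21 gave 12.2% and 36.3% of the reads from 11.1% and 17.7% of cells. These shares of P21 rest on few cells. Before thinning, 46 and 13 cells of the P21 mice had a Ptgs1 read, and 1 cell held 20.0% and 38.5% of the reads.

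Ptgs1 was close to absent from the vessel wall and low in adventitial fibroblasts of normal mice. No read was found in the 185 vascular smooth muscle cells of 8 libraries, which allows a share of up to 1.62% of cells and 0.0205 CPM, and 1 read was found in 273 pericytes of 8 libraries. Those libraries leave out the hyperoxia mice, which had only 5 and 3 pericytes. With these cells added, 3 of 281 pericytes had a Ptgs1 read. Early adventitial fibroblasts held 0 and 13.0 CPM at E18.5, then 1.80 and 9.68 at P1 and 0 and 0.407 at P7 normal, and adventitial fibroblasts of P21 held 4.47 and 0.591. These limits cover counting error only, since reads copied from 1 molecule count separately.

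Over all mesenchymal cells, Ptgs1 was 138 and 146 CPM at E18.5, then 26.0 and 29.5 at P1, 65.8 and 48.0 at P7 normal and 12.5 and 12.8 at P21. The mice of E18.5 were above all later mice, and those of P21 below all others, with no overlap between neighbouring ages. The fall from E18.5 to P1 was called by edgeR (log2 fold change -2.27, SE 0.29, adjusted p 0.00514) and had a log2 ratio of -2.40 within the female run and -2.31 within the male run. The call was lost when either E18.5 mouse or the P1 female was left out (adjusted p of 0.0518, 0.0701 and 0.0777).

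The fall from P7 to P21 was also called (-1.94, SE 0.29, adjusted p 0.00317), with a log2 ratio of -1.91 within the male run. The rise between P1 and P7 (0.95, SE 0.28) had an unadjusted p of 0.00684 and an edgeR adjusted p of 0.223. The subtypes that held the reads changed with age: 47.2% and 51.9% of Ptgs1 reads came from myofibroblasts at P7 normal, and 57.3% and 62.1% from alveolar fibroblasts at P21. The shares of P21 rest on the few cells given above. Myofibroblasts made up 25.6% and 32.3% of the cells of P7 normal, and no P21 mouse had 10 of them. In alveolar fibroblasts alone, Ptgs1 at P21 (21.0 and 38.5 CPM, early and later subtypes joined) overlapped that at P7 normal.

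**Figure D3:**
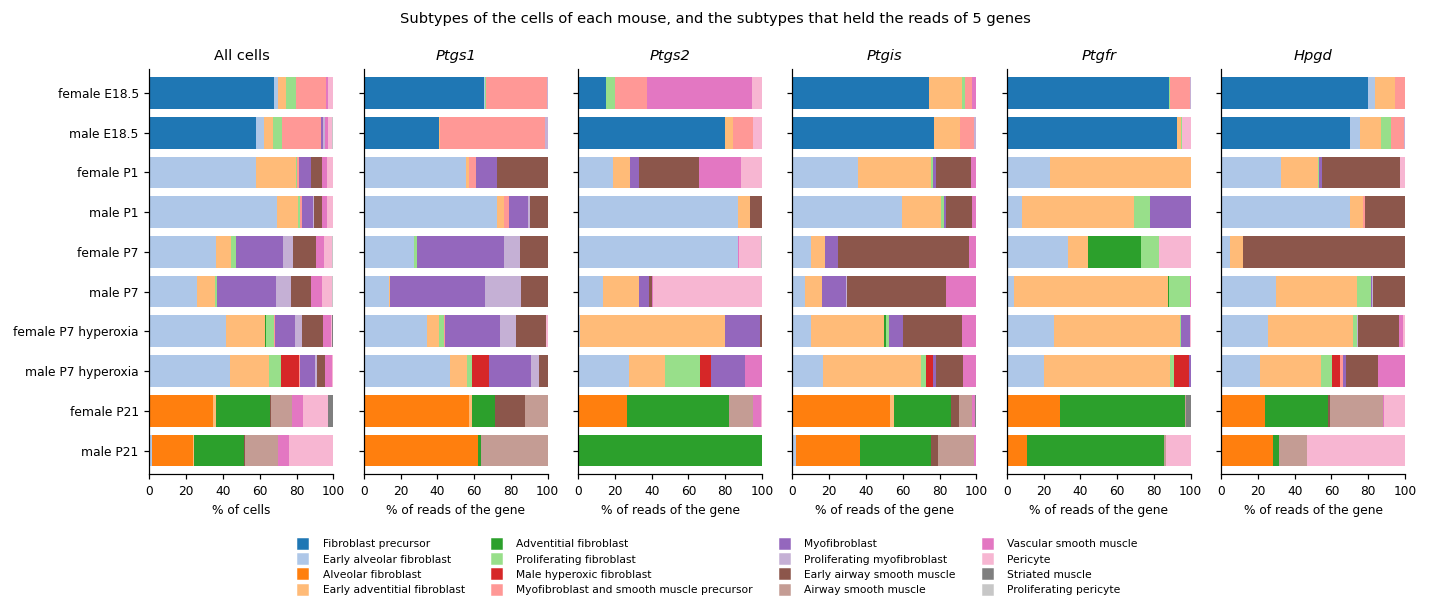
Horizontal bars, 1 per mouse, split by subtype (colours) the cells of the mouse (first panel, percent of cells) and its reads of Ptgs1, Ptgs2, Ptgis, Ptgfr and Hpgd (other panels, percent of reads of the gene). Early airway smooth muscle, 12.4% and 11.2% of the cells of P7 normal, held 71.2% and 53.8% of the Ptgis reads.

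Under hyperoxia, Ptgs1 stood higher in each class that held it, without an edgeR call in any. In myofibroblasts the P7 hyperoxia mice had 234 and 181 CPM against 126 and 70.0 in P7 normal, with no overlap (log2 fold change 1.07, SE 0.40, unadjusted p 0.0322, adjusted p 0.76). A Ptgs1 read was found in 75.9% and 75.6% of thinned myofibroblasts under hyperoxia and in 29.6% and 25.3% without it. The myofibroblasts of these mice also differed in genes found at equal depth, with medians of 4478 and 5337 genes per cell under hyperoxia and 2234 and 2128.5 in P7 normal, and the part of this difference in the shares was not tested.

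In early adventitial fibroblasts, where P7 normal had 0 and 0.407 CPM, the hyperoxia mice had 29.7 and 30.9 CPM of Ptgs1. The joined adventitial class held 5774 reads in 226 cells under hyperoxia and 25 reads in 106 cells of P7 normal (log2 8.53, SE 3.08, unadjusted p 0.0194, adjusted p 0.621 by edgeR, and 0.00173 by DESeq2). A read was found in 9.43% and 16.4% of thinned cells against 0% and 0%, so that the reads lay in a minority of the cells. Thinned adventitial cells had medians of 4014 and 4792.5 genes under hyperoxia and 2469 and 2550 without it. The part of this difference in the Ptgs1 values was not tested. Vascular smooth muscle, at 0 Ptgs1 reads in all 8 of its libraries, had none under hyperoxia either.

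Early alveolar fibroblasts had 81.6 and 86.8 CPM of Ptgs1 under hyperoxia and 53.4 and 28.9 in P7 normal, with a read in 33.5% and 42.3% of thinned cells against 19.0% and 11.6%. In early airway smooth muscle it was 164 and 89.8 CPM against 65.1 and 66.6, with shares of 56.1% and 61.9% against 22.7% and 20.6%. In both classes the hyperoxia mice lay above the P7 normal mice, and neither difference reached an unadjusted p of 0.05. Over all cells the values were 100.04 and 71.4 CPM against 65.8 and 48.0, with an edgeR adjusted p of 0.446.

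**Figure D4:**
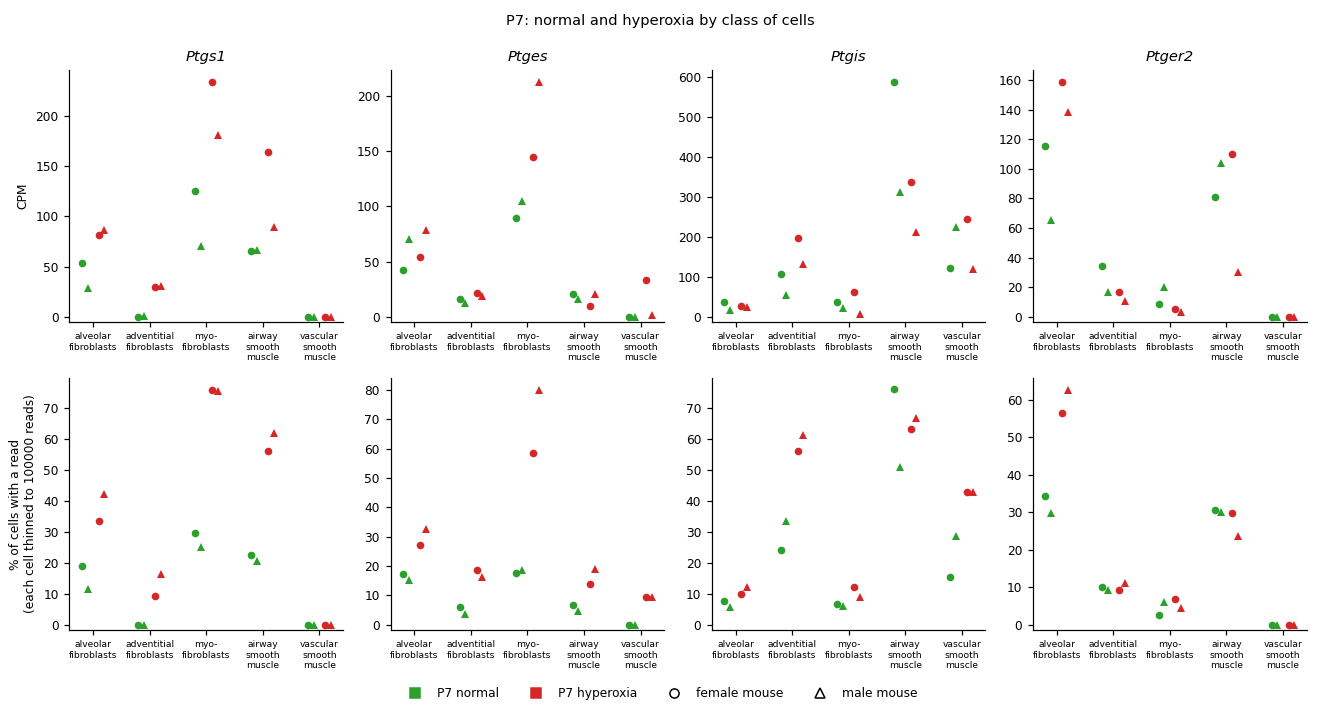
Ptgs1, Ptges, Ptgis and Ptger2 in P7 normal and P7 hyperoxia for 5 cell classes, with 1 point per mouse: level in CPM (top row) and percent of cells with a read after thinning to 100000 reads (bottom row). Ptgs1 in myofibroblasts goes from 126 and 70.0 CPM to 234 and 181, and it stays at 0 in vascular smooth muscle.

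Ptgs2, the cyclooxygenase known for rapid induction by growth factors and inflammation, was rare and was held by few cells. It had at least 10 CPM in 11 of 64 libraries, and 169 of 5312 thinned cells (3.18%) had a read. The libraries with high values often owed them to 1 cell: of the 95.9 CPM in vascular smooth muscle of the P1 female, 98.3% of reads came from 1 cell, and the P1 male had 0 CPM there. Pericytes of the P1 female (40.7 CPM, 98.3% of reads from 1 cell) and of the P7 normal male (28.3 CPM, 100% from 1 cell) were alike in this.

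The exception was adventitial fibroblasts of P21, in which Ptgs2 was 72.3 and 34.5 CPM (mean 53.4 ± 26.7, SD, n = 2). A read was found in 19.9% and 14.3% of thinned cells of that subtype, and the highest cell held 9.44% and 17.5% of the reads. This subtype was 29.2% and 27.3% of the cells of P21 and held 55.3% and 99.8% of the Ptgs2 reads. Alveolar fibroblasts of P21 held 35.4 and 0.0168 CPM and airway smooth muscle of P21 50.2 and 0.0445 CPM, so in those 2 subtypes Ptgs2 was high in the female alone.

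Over all mesenchymal cells Ptgs2 was 3.10 and 2.39 CPM at E18.5, then 12.0 and 4.12 at P1, 5.88 and 2.08 at P7 normal, 1.77 and 2.93 at P7 hyperoxia and 44.9 and 12.1 at P21. Both P21 mice were above every other mouse, the male only just above the P1 female. The rise from P7 to P21 was called by edgeR (log2 fold change 2.99, SE 0.68, adjusted p 0.0241), with a log2 ratio of 2.93 in females and 2.54 within the male run. It was lost when either P7 normal mouse or the P21 female was left out (adjusted p of 0.0966, 0.191 and 0.111). At P7 normal, 1 cell held 49.7% of the female's and 59.5% of the male's Ptgs2 reads.

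In adventitial fibroblasts alone, with early and later subtypes joined, Ptgs2 was 69.1 and 34.4 CPM at P21 and 0 and 4.02 at P7 normal. The 2 groups did not overlap, and the edgeR adjusted p was 0.507. Genes induced early by stimulation or dissociation and genes induced by cytokines stood higher at P21 too: the 10 immediate early genes summed to 24377 and 16283 CPM at P21 and 11502 and 8331 at P7 normal, and the 10 cytokine-induced genes summed to 1713 and 2135 CPM against 674 and 808. Their part in the Ptgs2 result was not tested.

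A read of both Ptgs1 and Ptgs2 was found in 29 of 5312 thinned cells. This is 17.2% of the Ptgs2-positive cells, beside the 22.7% of all thinned cells that had a Ptgs1 read. Ptgs1 and Ptges shared 346 cells, which is 31.1% of the Ptges-positive cells against the same 22.7%. Subtypes of different depth and age are pooled in these shares, which describe the table.

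Ptges, the synthase that works with the cyclooxygenases to make prostaglandin E2, was found in fibroblasts, myofibroblasts and pericytes and hardly in vascular smooth muscle. Myofibroblasts had 82.3 and 50.9 CPM at P1, 89.7 and 105 at P7 normal and 145 and 213 at P7 hyperoxia (mean 179 ± 48.3, SD, n = 2, the highest of any subtype and group). Alveolar fibroblasts of P21 had 138 and 206 CPM, a range that overlapped that of hyperoxic myofibroblasts. Pericytes had 138 and 34.8 CPM at E18.5 and 148 and 80.9 at P21, while vascular smooth muscle of P1 and of P7 normal had 0 reads in every library.

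Over all cells Ptges was 62.4 and 64.0 CPM at E18.5, then 32.4 and 30.8 at P1, 51.3 and 67.6 at P7 normal, 53.8 and 64.1 at P7 hyperoxia and 92.8 and 79.3 at P21. Neighbouring ages did not overlap: the level was lowest at P1 and stood higher at each later step. None of the steps was called: from E18.5 to P1 the log2 fold change was -0.93 (SE 0.25, adjusted p 0.14), from P1 to P7 0.83 (SE 0.25, adjusted p 0.233) and from P7 to P21 0.76 (SE 0.25, adjusted p 0.0865), all by edgeR and all with an unadjusted p under 0.05. The level of Ptges in adventitial fibroblasts was 67.5 and 42.1 CPM at P21 and 16.4 and 12.3 at P7 normal, again without overlap (log2 2.08, SE 0.69, adjusted p 0.392).

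Hyperoxic myofibroblasts stood above those of P7 normal in Ptges level and share. The share of thinned cells with a read was 58.6% and 80.0% under hyperoxia and 17.8% and 18.5% in P7 normal, in the same mice that differed in genes per cell. The log2 ratio of levels was 0.69 in females and 1.02 in males, and edgeR gave an unadjusted p of 0.0731. In vascular smooth muscle, Ptges went from 0 reads in 58 cells of P7 normal to 383 reads in 44 cells under hyperoxia (unadjusted p 0.0429 by edgeR). Under hyperoxia 9.52% and 9.52% of thinned cells had a read, which is few cells, so no fold change is given. Vascular smooth muscle of P21 held 251 Ptges reads, from 1 cell in each mouse, against the 0 reads of P7 normal (unadjusted p 0.0491 by edgeR). In pericytes the level was 22.0 and 0.126 CPM at P1 against 138 and 34.8 at E18.5, without overlap (log2 -3.79, SE 1.60, unadjusted p 0.0356, adjusted p 0.845 by edgeR).

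Ptgis, prostacyclin synthase, had the highest levels per length of the 9 genes, and airway smooth muscle led. Early airway smooth muscle held 237 and 148 CPM at P1, 589 and 313 at P7 normal (mean 451 ± 195, SD, n = 2) and 338 and 212 at P7 hyperoxia, and airway smooth muscle of P21 held 92.1 and 122. A Ptgis read was found in 76.0% and 50.8% of thinned early airway smooth muscle cells at P7 normal. The levels were higher at P7 normal than at P1 and lower again at P21, with no overlap at either step.

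Vascular smooth muscle came next at P7, with 122 and 224 CPM in P7 normal and 245 and 119 in P7 hyperoxia, which overlapped. Early adventitial fibroblasts had 123 and 83.9 CPM at E18.5, then 142 and 86.7 at P1 and 113 and 54.9 at P7 normal, and adventitial fibroblasts of P21 had 141 and 104, so these cells held the gene at every age. With both adventitial subtypes joined, the step from P7 to P21 had a log2 fold change of 0.84 (SE 0.34, unadjusted p 0.0318, adjusted p 0.463 by edgeR) with overlapping groups. Pericytes, the other vessel-wall cells, held 0 to 5.55 CPM, and myofibroblasts 7.84 to 61.1 CPM.

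In the joined airway smooth muscle class, the step from P1 to P7 had a log2 fold change of 1.16 (SE 0.35, unadjusted p 0.00931, adjusted p 0.919 by edgeR). The step from P7 to P21 had -1.26 (SE 0.35, unadjusted p 0.00601, adjusted p 0.211), with log2 ratios of -2.01 in females and -1.23 within the male run. Vascular smooth muscle also had lower Ptgis at P21 (61.9 and 17.6 CPM) than at P7 normal, without overlap (-2.29, SE 0.87, unadjusted p 0.0239, adjusted p 0.66).

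Alveolar fibroblasts differed with age in another way. With early and later subtypes joined, their Ptgis level was 0 and 0 CPM at E18.5, then 53.9 and 43.3 at P1, 37.9 and 17.3 at P7 normal, 25.9 and 24.2 at P7 hyperoxia and 245 and 166 at P21. The P21 mice were above all others, with a read in 65.3% and 34.3% of thinned alveolar fibroblasts against 7.62% and 5.80% of early alveolar fibroblasts at P7 normal. The step from P7 to P21 had a log2 fold change of 3.26 (SE 0.74, unadjusted p 0.00321) and an edgeR adjusted p of 0.426, and it passed with DESeq2 (adjusted p 1.89e-06), after thinning (0.00813) and in the fit of the 4 mice alone (0.018).

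The step from E18.5 to P1 in these cells was the call named above: 28097 reads in 755 cells at P1 against 0 reads in 38 cells at E18.5 (edgeR adjusted p 0.0284). The 38 cells stood apart from the rest. The female's 14 cells held 3123998 reads and the male's 24 cells 13571674, and the median thinned cell of the male had 922 genes. Their summed epithelial markers ran from 25.9 to 1093 CPM and their immune markers from 9.36 to 777, beside 118 to 142 and 19.8 to 21.9 at P1. The median log2 change of all genes in this comparison was 1.35, and the part of these differences in the Ptgis call was not tested. The call was lost in the fit of the 4 mice alone (adjusted p 0.572) and when any 1 of the mice of P1, P7 or P21 was left out (adjusted p of 0.0578 to 0.157).

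Over all cells Ptgis was 34.6 and 28.3 CPM at E18.5, then 83.0 and 49.5 at P1, 127 and 60.7 at P7 normal, 106 and 55.1 at P7 hyperoxia and 157 and 93.9 at P21. In each group the female was above the male. Apart from cells of the CD31 and CD45 sorts, the female and male of a group were in different runs. Sex, run and animal therefore cannot be told apart. The step from E18.5 to P1 did not overlap and had a log2 fold change of 1.10 (SE 0.26, adjusted p 0.0839 by edgeR), with 1.26 within the female run and 0.81 within the male run. The step from P7 to P21 was 0.68 (SE 0.26, adjusted p 0.125), and the 2 groups overlapped.

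**Figure D5:**
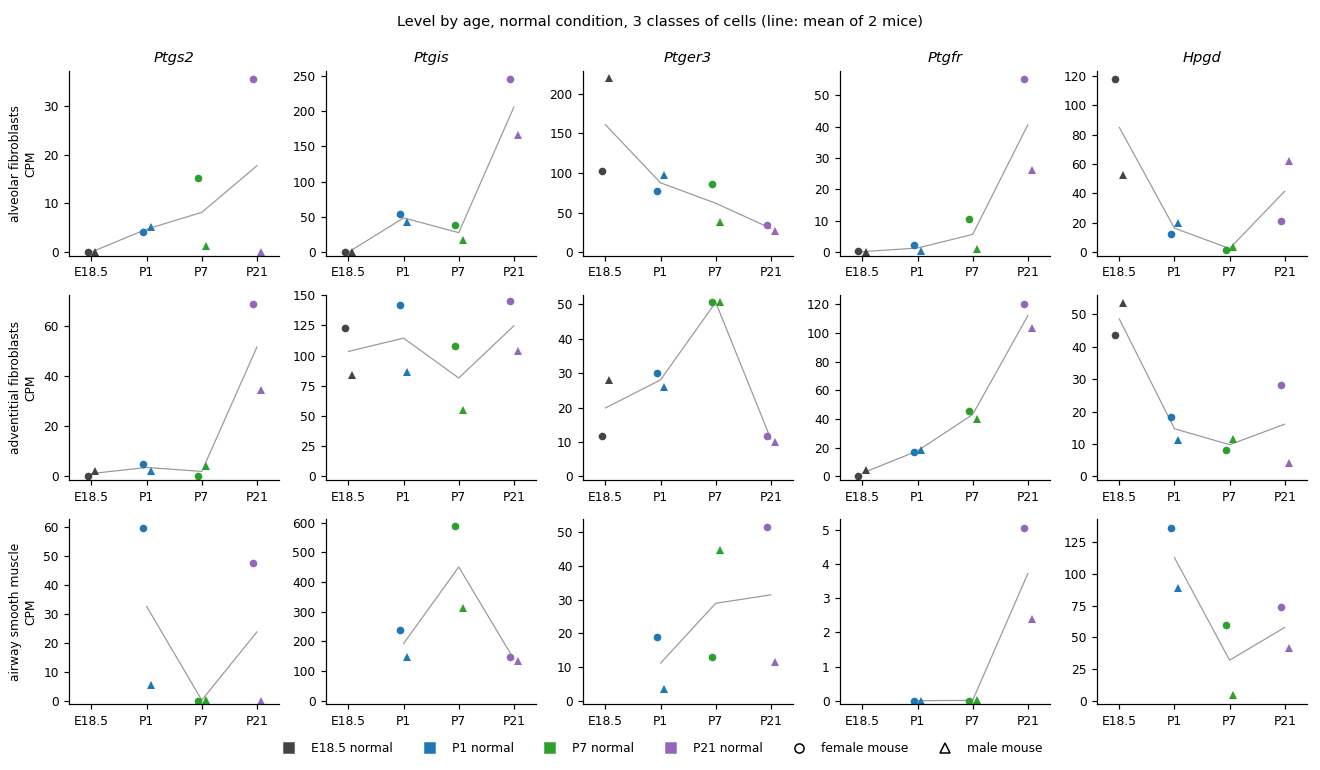
Levels (CPM) of Ptgs2, Ptgis, Ptger3, Ptgfr and Hpgd by age in alveolar fibroblasts, adventitial fibroblasts and airway smooth muscle of normal mice, early and later subtypes joined, with 1 point per mouse and a line through the means. Ptgis in airway smooth muscle is highest at P7 (589 and 313) and in alveolar fibroblasts at P21 (245 and 166), and Ptgfr in adventitial fibroblasts goes from 0.0405 and 4.56 at E18.5 to 121 and 104 at P21.

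Under hyperoxia, Ptgis in adventitial fibroblasts was 197 and 133 CPM against 108 and 55.0 in P7 normal. The groups did not overlap, and the log2 fold change was 0.88 (SE 0.34, unadjusted p 0.0261, adjusted p 0.621 by edgeR), with 0.87 in females and 1.27 in males. In early airway smooth muscle the hyperoxia mice lay lower (338 and 212 CPM against 589 and 313) with overlap. In alveolar fibroblasts they lay within the range of P7 normal.

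Ptger2, a prostaglandin E2 receptor that raises cyclic AMP, was a gene of fibroblast precursors, alveolar fibroblasts and airway smooth muscle. Fibroblast precursors supplied 89.6% and 91.6% of Ptger2 reads at E18.5, where they were 67.8% and 57.9% of cells. Before thinning, 33.5% of all 764 fibroblast precursors had a read. Early alveolar fibroblasts had 102 and 91.4 CPM at P1, 115 and 65.5 at P7 normal and 159 and 138 at P7 hyperoxia, and alveolar fibroblasts of P21 had 42.4 and 55.5. The early airway smooth muscle had 38.0 and 25.9 CPM at P1 and 80.9 and 104 at P7 normal. Airway smooth muscle of P21 had 56.4 and 248 (mean 152 ± 136, SD, n = 2), the least even of the highest levels, with the male far above the female.

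Adventitial fibroblasts of all ages held 0.0405 to 35.8 CPM of Ptger2 and myofibroblasts 0.0994 to 20.2. Early alveolar fibroblasts supplied 91.1% and 94.5% of Ptger2 reads at P1, where they were 57.2% and 68.9% of cells. In the P21 male, airway smooth muscle supplied 67.0% of the reads from 17.7% of the cells.

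Over all cells Ptger2 was nearly level from E18.5 (56.6 and 61.0 CPM) to P1 (62.0 and 66.0), and was 59.9 and 35.9 at P7 normal, 87.8 and 72.4 at P7 hyperoxia and 26.7 and 56.5 at P21. The hyperoxia mice were above the P7 normal mice (log2 0.70, SE 0.39, unadjusted p 0.105, adjusted p 0.495 by edgeR). In early alveolar fibroblasts 56.5% and 62.7% of thinned cells had a read under hyperoxia and 34.3% and 29.7% in P7 normal, beside medians of 3542 and 4225 genes per cell against 2286.5 and 2026.5.

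Ptger3, the receptor that mostly lowers cyclic AMP, was found in the same fibroblasts and, in some mice, in airway smooth muscle. Early alveolar fibroblasts had 102 and 219 CPM at E18.5 (mean 161 ± 82.6, SD, n = 2, from the 38 cells described above), then 77.3 and 97.6 at P1, 85.9 and 37.5 at P7 normal and 111 and 80.7 at P7 hyperoxia. Fibroblast precursors of E18.5 had 52.2 and 58.7. Myofibroblasts had 0 to 9.96 CPM, and the contractile precursors of E18.5, which led for Ptgs1, had 2.92 and 1.68.

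Early airway smooth muscle held 18.9 and 3.397 CPM of Ptger3 at P1, 13.0 and 44.9 at P7 normal and 0.245 and 6.30 at P7 hyperoxia, and airway smooth muscle of P21 held 54.6 and 12.3. In the P7 normal male and the P21 female these levels were above those of the alveolar fibroblasts of the same mouse. The cells with a read were few, with 14.3% of thinned early airway smooth muscle cells in the P7 normal male and 13.8% of thinned airway smooth muscle cells in the P21 female.

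Adventitial fibroblasts showed a peak of Ptger3 at P7. With both subtypes joined, they had 11.8 and 27.9 CPM at E18.5, then 30.1 and 26.0 at P1, 50.6 and 50.5 at P7 normal, 56.6 and 48.4 at P7 hyperoxia and 11.8 and 9.91 at P21. The P21 mice lay well below those of P7 normal, with a log2 fold change of -2.05 (SE 0.63, unadjusted p 0.0081, adjusted p 0.346 by edgeR and 0.00524 by DESeq2) and a log2 ratio of -2.35 within the male run.

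Over all cells Ptger3 was 37.3 and 44.0 CPM at E18.5, then 53.1 and 71.0 at P1, 38.1 and 21.0 at P7 normal, 64.1 and 51.5 at P7 hyperoxia and 22.6 and 10.8 at P21. P7 normal lay below P1 (log2 -1.21, SE 0.39, adjusted p 0.259 by edgeR) and below P7 hyperoxia (log2 0.96 for hyperoxia, SE 0.38, unadjusted p 0.0316, adjusted p 0.349), without overlap in either case. In alveolar fibroblasts of the P21 male, 99.9% of Ptger3 reads came from 1 cell.

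Ptger2 and Ptger3, which act on cyclic AMP in opposite ways, shared 388 thinned cells with a read. This is 41.9% of the Ptger3-positive cells, beside the 22.0% of all thinned cells that had a Ptger2 read, and 33.3% of the Ptger2-positive cells, beside 17.5% with a Ptger3 read. Subtypes are pooled here too. Over the 64 libraries, which share mice and depth, their levels correlated at r = 0.51 on the log scale, Ptger3 and Ptger4 at 0.53, and Ptgs1 and Ptger2 at 0.62, the highest of the pairs of members.

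Ptger4, the other receptor that raises cyclic AMP, was low and its level differed between ages. Early alveolar fibroblasts of P1 held 32.9 and 35.9 CPM (mean 34.4 ± 2.15, SD, n = 2), those of P7 normal 10.5 and 0.893, those of P7 hyperoxia 14.3 and 29.4, and alveolar fibroblasts of P21 11.4 and 13.2. Early adventitial fibroblasts held 13.6 and 36.2 CPM at E18.5, then 31.1 and 35.6 at P1 and 21.1 and 9.34 at P7 normal, and adventitial fibroblasts of P21 held 32.2 and 21.6. Myofibroblasts held at most 1.20 CPM. In alveolar fibroblasts the P1 mice lay above the 38 cells of E18.5 (0 and 2.21 CPM), with a log2 fold change of 4.81 (SE 1.94, unadjusted p 0.0387, adjusted p 0.209 by edgeR).

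Over all cells Ptger4 was 10.3 and 9.13 CPM at E18.5, then 26.7 and 29.4 at P1, 5.69 and 1.25 at P7 normal, 9.06 and 20.1 at P7 hyperoxia and 17.5 and 18.6 at P21. P7 normal was the lowest group, and it overlapped no other. Before thinning, a Ptger4 read was found in 74 of 524 and 30 of 311 cells at P21. At P7 normal it was found in 56 of 606 and 46 of 570 cells. A single cell held 12.2% and 31.5% of the Ptger4 reads at P21 and 16.8% and 51.7% at P7 normal, so the male levels rest on few cells. The step from P7 to P21 was called by edgeR (log2 fold change 2.64, SE 0.69, adjusted p 0.0403), with log2 ratios of 1.62 in females and 3.89 within the male run. This call was lost on leaving out any 1 of 7 mice (both of E18.5, both of P1, both of P21 and the P7 normal male), and without the P7 normal male the change was 1.71 (adjusted p 0.186).

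The opposite step from P1 to P7 was of like size (-3.13, SE 0.71, unadjusted p 0.00127) with an edgeR adjusted p of 0.112 and a DESeq2 adjusted p of 3.23e-05. For hyperoxia against P7 normal the log2 fold change was 2.10 (SE 0.70, unadjusted p 0.0131, adjusted p 0.277 by edgeR and 0.0177 by DESeq2), with 0.67 in females and 4.00 in males. Both rest on the same low pair of P7 normal mice. In airway smooth muscle Ptger4 was 6.37 and 50.4 CPM at P21 and 0.0389 and 0.224 at P7 normal, without overlap (log2 8.08, SE 2.92, unadjusted p 0.0216, adjusted p 0.363 by edgeR and 0.000669 by DESeq2).

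Ptgfr, the receptor of prostaglandin F2 alpha, marked adventitial fibroblasts of P21. They held 126 and 104 CPM (mean 115 ± 15.7, SD, n = 2), with a read in 45.0% and 23.8% of thinned cells, and gave 67.5% and 74.5% of the Ptgfr reads of P21. Alveolar fibroblasts of P21 held 55.0 and 26.5 CPM. Early airway smooth muscle held 1 read in 280 cells, vascular smooth muscle 3 reads in 185 cells, and proliferating myofibroblasts none in 94 cells.

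In adventitial fibroblasts, both subtypes joined, Ptgfr was 0.0405 and 4.56 CPM at E18.5, then 17.0 and 18.7 at P1, 45.9 and 40.4 at P7 normal, 30.8 and 34.4 at P7 hyperoxia and 121 and 104 at P21. The level was higher at each age than at the one before, without overlap. The first step had a log2 fold change of 3.26 (SE 1.18, unadjusted p 0.0199, adjusted p 0.477 by edgeR), and the later steps had adjusted p of 0.885 and 0.652. In alveolar fibroblasts the step from P7 (10.4 and 0.886 CPM) to P21 (55.0 and 26.0, joined) had a log2 fold change of 3.83 (SE 1.46, unadjusted p 0.031, adjusted p 0.671 by edgeR and 0.00762 by DESeq2). The P7 normal female rests on 1 cell of the later adventitial subtype, 0.165% of its cells, which held 28.6% of its Ptgfr reads, and its early adventitial cells alone had 13.2 CPM, below those of P1.

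Over all cells Ptgfr was 6.55 and 8.82 CPM at E18.5, then 5.09 and 3.70 at P1, 10.5 and 4.95 at P7 normal, 9.87 and 11.0 at P7 hyperoxia and 64.1 and 48.8 at P21. The P21 mice were far above all others. The rise from P7 was called (log2 fold change 3.12, SE 0.44, adjusted p 0.00262 by edgeR), with a log2 ratio of 3.30 within the male run, and it was called in all 20 settings tried. Markers of adventitial fibroblasts, summed over all cells, were 7059 and 8754 CPM at P21 and 1875 and 1822 at P7 normal, and those of alveolar fibroblasts 9621 and 7678 against 2990 and 1714.

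High Ptgfr values in pericytes were those of single cells. In the P7 normal female 1 pericyte gave the whole level of 60.8 CPM, and the male had 0. The 1221 reads of P7 normal, against 0 reads at P1 (unadjusted p 0.026 by edgeR), thus rest on 1 cell of 1 mouse. In myofibroblasts Ptgfr held 226 reads under hyperoxia and 3 in P7 normal (3.88 and 1.29 CPM against 0.00602 and 0.00939), which had an unadjusted p of 0.0505 with edgeR and an adjusted p of 0.0164 with DESeq2.

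Hpgd, the enzyme that inactivates prostaglandins, was highest in airway smooth muscle around birth. Early airway smooth muscle held 136 and 89.1 CPM at P1 (mean 113 ± 33.4, SD, n = 2), 59.3 and 4.54 at P7 normal and 32.8 and 85.8 at P7 hyperoxia, and airway smooth muscle of P21 held 74.5 and 45.1. The male value under hyperoxia came mostly from 1 cell, with 92.4% of the reads. At P1, 31.6% and 22.7% of thinned cells of this subtype had a read.

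Other subtypes mostly held less, and single libraries reached the same range. Fibroblast precursors of E18.5 had 23.8 and 25.2 CPM and early adventitial fibroblasts of E18.5 43.6 and 53.5. Myofibroblasts had at most 5.22. Pericytes of P21 had 29.8 and 116 CPM against 0 and 0.0381 at P7 normal (8634 reads against 1, unadjusted p 0.0168, adjusted p 0.955 by edgeR), with 79.8% of the male's reads in 1 cell. These pericytes gave 53.4% of all Hpgd reads of the P21 male. In vascular smooth muscle, Hpgd held 1621 reads under hyperoxia, from 1 cell in each mouse, and 2 in P7 normal (unadjusted p 0.0436, adjusted p 1 by edgeR and 0.0417 by DESeq2). Pericytes of P1 held 230 reads, all from the female, against 1 read at P7 normal (unadjusted p 0.0374).

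In alveolar fibroblasts, both subtypes joined, Hpgd had its low point at P7 normal. The levels were 118 and 52.2 CPM in the 38 cells of E18.5, then 12.7 and 19.9 at P1, 1.46 and 3.49 at P7 normal, 9.06 and 10.7 at P7 hyperoxia and 21.1 and 61.9 at P21. P7 normal overlapped none of the other groups. The step from E18.5 to P1 had a log2 fold change of -2.50 (SE 0.99, unadjusted p 0.0357, adjusted p 0.2 by edgeR). The step from P7 to P21 had a log2 fold change of 4.38 (SE 1.07, unadjusted p 0.0035, adjusted p 0.443 by edgeR, and 6.61e-07 by DESeq2), and that from P1 to P7 -2.81 (SE 1.00, unadjusted p 0.0226, adjusted p 1 by edgeR, and 0.0204 by DESeq2). In the male of P21, 83.9% of the reads in alveolar fibroblasts came from 1 cell.

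Over all cells Hpgd was 20.0 and 21.8 CPM at E18.5, then 21.3 and 19.3 at P1, 10.3 and 2.72 at P7 normal, 14.8 and 19.2 at P7 hyperoxia and 29.9 and 45.2 at P21. P7 normal was again the lowest group and P21 the highest. Before thinning, an Hpgd read was found in 54 of 524 and 17 of 311 cells at P21. At P7 normal it was found in 13 of 606 and 25 of 570 cells. A single cell held 9.95% of the Hpgd reads in the P21 female and 42.6% in the P21 male, so the male level rests on few cells. The rise from P7 to P21 was called (log2 fold change 2.81, SE 0.59, adjusted p 0.017 by edgeR), with 1.54 in females and 4.06 within the male run, and it was lost without the P7 normal male (1.93, adjusted p 0.079). The step from P1 to P7 was -1.75 (SE 0.56, adjusted p 0.259) and hyperoxia against P7 normal 1.39 (SE 0.56, adjusted p 0.35).

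The tests of whether hyperoxia acted differently in 2 cell classes called 0 of 36 members with edgeR, 8 of 36 had an unadjusted p under 0.05 (22.2%, beside 5.29% of all gene tests), and DESeq2 called 8. Against alveolar fibroblasts, the share of all genes called was 0% for adventitial fibroblasts, 0.013% for myofibroblasts, 0.0132% for airway smooth muscle and 0% for vascular smooth muscle. The difference was 6.66 (SE 1.84, unadjusted p 0.0152, adjusted p 0.729) for Ptgs1 in adventitial fibroblasts, where edgeR called it without the P7 normal female (adjusted p 0.0181) or without the P7 normal male (0.0266). For Ptgis in the same cells it was 1.09 (SE 0.34, adjusted p 0.729). Ptger2 differed in the other direction, by -1.58 (SE 0.36, adjusted p 0.712) in adventitial fibroblasts and -2.44 (SE 0.69, adjusted p 0.725) in myofibroblasts, on the log2 scale. In myofibroblasts Ptger4 differed by -5.95 (SE 1.43, adjusted p 0.641) and Ptgfr by 7.07 (SE 2.38, adjusted p 0.801), both from few reads. In vascular smooth muscle Hpgd differed by 7.93 (SE 2.54, unadjusted p 0.018, adjusted p 1), and Ptges, at 0 reads in P7 normal, had an unadjusted p of 0.00815.

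The rest of the pathway was followed in lists of genes over all cells. These lists were chosen with earlier results of these data known, so their counts are a description. From P7 to P21, 2 of 9 genes of arachidonate release rose and 0 fell, where 9.97% of all genes were called, with a median log2 change of 1.26 beside 0.03 over all genes. They were Pla2g4a, the cytosolic phospholipase that supplies the cyclooxygenases, at 19.5 and 21.2 CPM against 3.68 and 3.41 (log2 2.78, adjusted p 0.0097), and Pla2g2e, a secreted phospholipase, at 0.858 and 1.24 CPM against 0.00149 and 0. Pla2g4a stood at 40.8 and 53.1 CPM in adventitial fibroblasts of P21, the cells with the highest Ptgs2.

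None of the 8 other prostanoid synthases, 4 other prostanoid receptors, 5 genes of transport and breakdown and 7 genes of the leukotriene arm was called by edgeR from P7 to P21, with 1 higher and 1 lower, 0, 2 higher and 1 lower, and 1 higher at an unadjusted p under 0.05 (26.2% of all genes in either direction). The highest of each list over all cells were Pla2g12a, a secreted phospholipase (57.3 CPM), Ptges3, a widely expressed synthase and chaperone partner (144 CPM), Lta4h, the leukotriene A4 hydrolase (92.6 CPM), and Ptgr1, a reductase of prostaglandin breakdown (46.5 CPM), and Tbxa2r, the thromboxane receptor (19.1 CPM). Tbxa2r held 4.74 to 128 CPM in vascular smooth muscle. Ptgir, the prostacyclin receptor, named after its values were seen, held 0.0792 to 103 CPM in pericytes, where Ptgis was at most 5.55 CPM.

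Genes often induced together with Ptgs2 changed at the same step, in lists likewise chosen with earlier results of these data known. From P7 to P21, 4 of 10 immediate early genes rose (Jun, Junb, Atf3 and Dusp1) and 6 of 10 cytokine-induced genes rose (Il6, Cxcl1, Ccl2, Ccl7, Tnfaip3 and Has1), with 0 lower in either list, beside the same 9.97% of all genes. The largest were Has1, a hyaluronan synthase (log2 5.04, adjusted p 0.00362), Tnfaip3, an inhibitor of inflammatory signalling (3.67, adjusted p 0.00606), and Il6, a cytokine (3.52, adjusted p 0.00138). In adventitial fibroblasts Has1 was 323 and 268 CPM at P21 and 0.676 and 2.40 at P7 normal (log2 7.71, adjusted p 0.0462).

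Earlier steps held few calls of these lists. From E18.5 to P1 over all cells, Il6 (log2 4.65, adjusted p 0.003) and Cxcl1, a chemokine (1.76, adjusted p 0.00747), rose, and from P1 to P7 Cxcl1 fell by 1.50 (adjusted p 0.0485). At the step from P1 to P7, 7 of 10 immediate early and 7 of 10 cytokine-induced genes had a lower level and an unadjusted p below 0.05, which 11.1% of all genes had in either direction. Il6 in adventitial fibroblasts rose from E18.5 to P1 (21.5 and 48.6 CPM to 288 and 245, adjusted p 0.0227), and so did Ccl2, a chemokine (0 and 0 CPM to 110.4 and 51.8, adjusted p 0.0427).

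In airway smooth muscle 6 of 10 immediate early genes rose from P7 to P21 (Jun, Junb, Egr1, Atf3, Ier2 and Nr4a1), as did 3 of 10 cytokine-induced genes (Il6, Cxcl1 and Ccl2), where 1.13% of all genes were called. Ptgs2 in these cells was 47.4 and 0.0414 CPM at P21 and 0.0583 and 0.304 at P7 normal, so it did not follow them in the male. In alveolar fibroblasts from E18.5 to P1, Pla2g15, a lysosomal phospholipase, and Ptges2, a further prostaglandin E synthase, rose from 0 reads in the 38 cells described above (adjusted p 0.0365 and 0.0306).

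Under hyperoxia none of these 7 lists held a gene called by edgeR over all cells. At an unadjusted p under 0.05, 2 of 9 genes of arachidonate release, 1 of 8 synthases, 0 of 4 receptors, 1 of 5 genes of transport and breakdown, 2 of 7 of the leukotriene arm and 4 of 10 cytokine-induced genes were higher, and 3 of 10 immediate early genes were lower. Over all genes tested 12.3% had an unadjusted p under 0.05 in either direction.

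The genes whose levels were most like each member over the 64 libraries were named by Pearson's r of log levels among 11944 genes. The libraries share mice, runs and depth, and the values are a description. For Ptgs1 these were Adgrg2 (r = 0.86), Gata5 (0.82) and Nrcam (0.81), and for Ptger2 Mical3 (0.76), Gata5 (0.74) and Cp (0.73). Ptgis was most like Adamts5 (0.76), Tcea3 (0.75) and Sod3 (0.75), and Ptges like Abcd2 (0.73), Efcc1 (0.70) and Bmp5 (0.68). Ptger3 was most like Bmp3 (0.73), Mfap4 (0.70) and Alcam (0.70), and Ptger4 like Igfbp6, D430041D05Rik and Dpep1 (0.73 each). Ptgfr was most like Adh7 (0.67), Prlr (0.63) and Lbp (0.63), and Hpgd like Plpp3 (0.66), Alg11 (0.53) and Il6ra (0.53). Ptgs2 had the weakest partners, Slco2b1 (0.53), 2900005J15Rik (0.52) and Sema3b (0.50).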

How the data were processed

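The deposited values are whole-number read counts per gene and cell. The authors made them with STAR 2.5.2b and HTSeq 0.10, per the submitters' processing notes, and whether counting used strand is not given in the sources used here. Exons of 5 of the 9 members (Ptgs1, Ptgis, Ptger2, Ptger4 and Ptgfr) overlap those of a gene on the opposite strand in GENCODE vM21, so reads of the partners could be mixed. Gene lengths are merged exons of that annotation, and the upstream windows come from RefSeq GRCm38.p6, where 8 of 9 members matched (not Ptgis).

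Counts were summed per mouse over all cells and over cell classes with at least 10 cells per mouse. The mouse was the replicate. Sums were fitted with edgeR 4.0.16 (filterByExpr, TMM, terms for group and sex; all groups in 1 fit, with separate fits per class and for differences between classes) under R 4.3.3. An adjusted p under 0.05 was called. Shares of cells were taken after thinning to 100000 reads per cell, which left out 168 cells. Limits at 0 are 3 counts and intervals are 95%, and both cover counting error only. No doublet caller was run. Alternatives were DESeq2 1.42.0, no low-count filter, other cell minimums, thinned counts, only the mice of a contrast, only the mesenchymal sort, and leaving out each mouse. All 9 members were named, with statistics where an unadjusted p was under 0.05. Pathway genes were named where called or highest of their list, and the 3 genes most like each member by r of log2(CPM + 1). Members and lists were chosen with earlier results of these data known.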

Additional observations from a re-analysis of the deposited data

How the results depend on the processing

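Over the 17 comparisons between ages, edgeR called 7 member tests; DESeq2 called 33, thinned counts gave 14, and leaving out 1 mouse gave 3 to 10. Over all genes the 3170 calls became 19112 with DESeq2 and 614 to 6591 without 1 mouse. For hyperoxia the count of members was 0 with edgeR and with each mouse left out, and 5 with DESeq2 (Ptger4 in all cells, Ptgs1 in adventitial fibroblasts, Ptgfr in myofibroblasts, Ptges and Hpgd in vascular smooth muscle). The 42 calls over all genes became 2401 with DESeq2, 156 with the 4 mice alone, 195 after thinning and 0 to 353 without 1 mouse. For differences between classes the 0 members became 8 with DESeq2 and 0 to 1 without 1 mouse, and the 4 calls over all genes became 1816 with DESeq2, 12 without a low-count filter, 0 without the CD31 and CD45 sorts, 34 after thinning and 0 to 592 without 1 mouse. The causes were not tested. Among single tests, the sign turned in pericytes from P1 to P7 for Ptgfr without the P7 normal female (-1.06, against 21.40 without the P7 normal male, in a fit against groups at or near 0 reads) and for Hpgd without the P1 normal female (3.32, against -12.74 without the P1 normal male). Of the calls, Ptgs1 and Ptgfr from P7 to P21 held in 20 of 20 settings, Hpgd in 19, Ptgs2 and the earlier Ptgs1 fall in 17, Ptger4 in 13, and Ptgis in alveolar fibroblasts from E18.5 to P1 in 9 of 18. In levels, Ptger3 in early alveolar fibroblasts of E18.5 was 58.5 CPM as a mean over cells, against 161 from summed reads. Striated muscle had the lowest median depth of the subtypes, 295945.5 reads per cell.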

Other observations

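Cells that had been gated by CD31, an endothelial surface protein, and then labelled mesenchymal were few and enter the sums above. In the P7 hyperoxia female, 6 of 11 such cells had a Ptgs1 read (247 CPM) and 7 had a Ptgis read (288 CPM). In the P7 hyperoxia male, 5 of 9 had a Ptgs1 read (41.7 CPM) and 6 a Ptgis read (125 CPM), and in the P7 normal male 3 of 14 had a Ptgs1 read (13.5 CPM). In the E18.5 female, 8 of 18 had a Ptgs1 read (50.5 CPM). In the P21 male, 1 of 2 such cells held Hpgd at a summed level of 2687 CPM, and without the CD31 and CD45 sorts the Hpgd rise from P7 to P21 over all cells was 2.71 on the log2 scale (edgeR adjusted p 0.0226).

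A subtype labelled male hyperoxic fibroblast was found in that mouse alone, with 55 cells. It held 49.2 CPM of Ptgs1, with a read in 47.3% of thinned cells, and 72.1 CPM of Ptger2. Striated muscle cells of the P21 female, 16 in number, had no read of Ptgs1, Ptgs2, Ptges, Ptger2, Ptger3 or Ptger4, which allows a share of up to 18.8% of cells for each, and held 97.5 CPM of Ptgfr.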
